A study of Mus musculus with 18 samples.

Results

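Fibroblast growth factor 21 (Fgf21), its obligate co-receptor β-Klotho (Klb), the 4 signalling FGF receptors Fgfr1, Fgfr2, Fgfr3 and Fgfr4, and the paracrine ligand Fgf1 were followed through mouse livers after myocardial infarction (MI). These 7 genes were taken by exact match of the gene symbol, out of 50600 genes in the 1 day table and 17127 genes in the 12 hour table. All 7 were found once in both tables, and all 7 passed the filter on low counts, which left 14266 genes tested at 1 day and 12548 at 12 hours. Fgf21 is the hepatic hormone that the study singled out from these same 1 day livers, so its 1 day values are not independent evidence of its direction. The question asked of the data was how the ligand and its receptors changed in the liver after MI, with and without the mineralocorticoid receptor (MR, gene Nr3c2) in hepatocytes.

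The 1 day experiment held 4 groups of 3 livers, taken 1 day after the operation. HMRKO + MI and HMRKO + sham livers came from hepatocyte MR knockout mice, which carry MR flox/flox with Alb-Cre, a Cre recombinase driven by the albumin promoter. The study reports that the loss of MR was limited to the liver among the tissues it compared. The labels give the genotype of these mice as MR-/-. LC + MI and LC + sham livers came from littermate controls with the same MR flox/flox alleles and no Cre, which the labels call wild type. The 12 hour experiment held 3 MI and 3 sham livers of C57 mice with intact MR, in a table of its own. The labels give C57BL/6 mice of 12 weeks for every sample. The methods give males, MI by lasting occlusion of the left anterior descending branch, and a sham operation without it. Fgf21 itself was intact in all 6 groups.

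FGF21 is made mainly by hepatocytes and is secreted into the blood, and it belongs to the endocrine FGFs, which bind heparan sulfate weakly and need a Klotho protein to engage their receptors. KLB holds FGF21 to FGFR1c, chiefly in adipose tissue and brain, and holds the intestinal hormone FGF15 to FGFR4 in hepatocytes, where that signal lowers bile acid synthesis. FGF1 binds all FGF receptors without a Klotho protein. In the liver, Fgf21 transcription is known to rise with fasting through PPARα and with amino acid or endoplasmic reticulum stress through ATF4.

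Because Fgf21 was the member with the largest differences, the 250 bases before its transcription start are shown, from RefSeq on build GRCm38.p6, chr7:45615491-45615740, minus strand, 5′ to 3′. Capitals mark, in order, an amino acid response element, an E-box and a TATA box.

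Fgf21: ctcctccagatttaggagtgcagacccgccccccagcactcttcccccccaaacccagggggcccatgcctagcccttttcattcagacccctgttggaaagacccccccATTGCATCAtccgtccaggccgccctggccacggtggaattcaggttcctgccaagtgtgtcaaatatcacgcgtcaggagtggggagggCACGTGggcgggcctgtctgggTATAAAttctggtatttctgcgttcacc

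The amino acid response element (TGATGNAAN, the kind of site that ATF4 binds) lay on the opposite strand from base -140 to -132 relative to the start, the E-box (CACGTG, bound by basic helix-loop-helix factors) from -50 to -45, and the TATA box (TATAAA) from -28 to -23. None of these 3 matches overlapped another. Of 32851 RefSeq promoter entries, 3.44% held that response element, 6.02% the E-box and 12.4% the TATA box in the same 250 bases on either strand. Searches for AGGTCA (14.0% of entries), AGAACA (16.1%), TTCNNNGAA (7.02%) and CCAAT (33.8%) gave no match in this window. Promoter entries were matched for 5 of the 7 genes (Fgf21, Klb, Fgfr2, Fgfr3 and Fgfr4, with 6 entries in all), and outside Fgf21 the only match among the 7 motifs was a CCAAT box upstream of Fgfr3. These matches describe the letters of the windows and say nothing of binding in these livers.

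The genes were identified in the files as ENSMUSG00000030827 (Fgf21, chromosome 7), ENSMUSG00000029195 (Klb, chromosome 5), ENSMUSG00000031565 (Fgfr1, chromosome 8), ENSMUSG00000030849 (Fgfr2, chromosome 7), ENSMUSG00000054252 (Fgfr3, chromosome 5), ENSMUSG00000005320 (Fgfr4, chromosome 13) and ENSMUSG00000036585 (Fgf1, chromosome 18). In the GENCODE vM21 annotation of GRCm38, no exon of Fgf21, Klb, Fgfr4 or Fgf1 overlapped an exon of another gene. One other gene overlapped exons of Fgfr1 (Gm16159, opposite strand), of Fgfr2 (Ctbp2, same strand) and of Fgfr3 (G630022F23Rik, opposite strand). Reads from the shared exon parts of Fgfr2 and Ctbp2 cannot be told apart by strand, and those of the opposite-strand pairs only with the strand setting of the counting, which no source used here states.

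Total counts were 19098704 to 28945526 per liver at 1 day. LC + MI replicate 1 stood apart with 18.9% of its counts from mitochondrial genes, against 7.53% to 15.6% in the other 11 livers. By group, this share was 8.68% to 9.10% in HMRKO + MI and 10.9% to 18.9% in LC + MI livers. It was 10.1% to 15.6% in HMRKO + sham and 7.53% to 9.65% in LC + sham livers. The 2 groups of each pairwise comparison at 1 day did not overlap in this share, and its part in the results was not tested. At 12 hours the MI libraries held 16745645 to 19190405 counts and the sham libraries 1361506 to 2255782, so depth and operation cannot be told apart there. Summed hepatocyte markers were 78108 to 107545 CPM (counts scaled to the size of the library) in the 12 hour MI livers and 30960 to 33105 CPM in the 12 hour sham livers, whereas at 1 day all 12 livers lay between 48178 and 72582 CPM. Gm20594 averaged 21998 CPM in the 12 hour sham livers and 421 CPM in the 12 hour MI livers. The 12 hour libraries thus differed in composition as well as in depth. The targeted gene, Nr3c2, averaged 0.968 CPM in HMRKO + MI livers, 2.53 CPM in LC + MI livers, 3.08 CPM in HMRKO + sham livers and 5.67 CPM in LC + sham livers. Every HMRKO liver lay below every LC liver of the same operation, but reads outside the deleted part are counted too, and in sham livers the difference did not pass (log2 fold change -0.88, edgeR adjusted p = 0.472). In whole liver, fewer cells of a type and less RNA per cell cannot be told apart.

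Set per length of exon, Fgf21 was the least abundant of the 7 genes in sham livers and among the most abundant in HMRKO + MI livers. At 1 day the levels in CPM per kilobase of exon (GENCODE vM21) in HMRKO + MI livers were highest for Fgf21 at 16.1 ± 6.83, with Fgf1 at 15.3 ± 3.26 and Fgfr4 at 12.1 ± 0.644 within its spread (SD, n = 3). Fgfr3, Fgfr2, Fgfr1 and Klb followed at 4.57 ± 1.35, 3.43 ± 1.12, 2.56 ± 0.778 and 1.88 ± 0.801 (SD, n = 3). In this run each gene after Fgfr3 lay within the SD of the gene before it. In LC + MI livers Fgf21 ranked 5 of 7 at 2.40 ± 1.04 CPM per kilobase, behind Fgfr4 at 16.6 ± 0.776, Fgf1 at 15.5 ± 1.92, Fgfr3 at 8.05 ± 2.58 and Fgfr2 at 3.20 ± 0.515. Fgfr2, Klb at 1.99 and Fgfr1 at 1.63 lay within the spread of Fgf21 there, so its rank is not resolved among them. Fgf21 stood last of 7 in both sham groups, at 0.521 ± 0.202 CPM per kilobase in HMRKO + sham livers and 0.447 ± 0.300 in LC + sham livers, where Fgfr4, at 13.7 ± 3.89 and 14.0 ± 3.95 CPM per kilobase, had the highest mean. Fgfr3 at 12.6 ± 3.06 and Fgf1 at 11.4 ± 0.709 in HMRKO + sham livers, and Fgf1 at 12.7 ± 4.06 CPM per kilobase in LC + sham livers, lay within the spread of Fgfr4. At 12 hours, in the authors' TPM (a transcript level scaled by length and by library), Fgf21 again stood first of 7 in MI livers (27.7 ± 10.2 TPM) and last of 7 in sham livers (2.197 ± 3.18 TPM). Fgf1 at 26.15 and Fgfr4 at 19.95 TPM in MI livers, and Klb at 2.88 and Fgfr2 at 5.04 TPM in sham livers, lay within its spread.

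**Figure D1:**
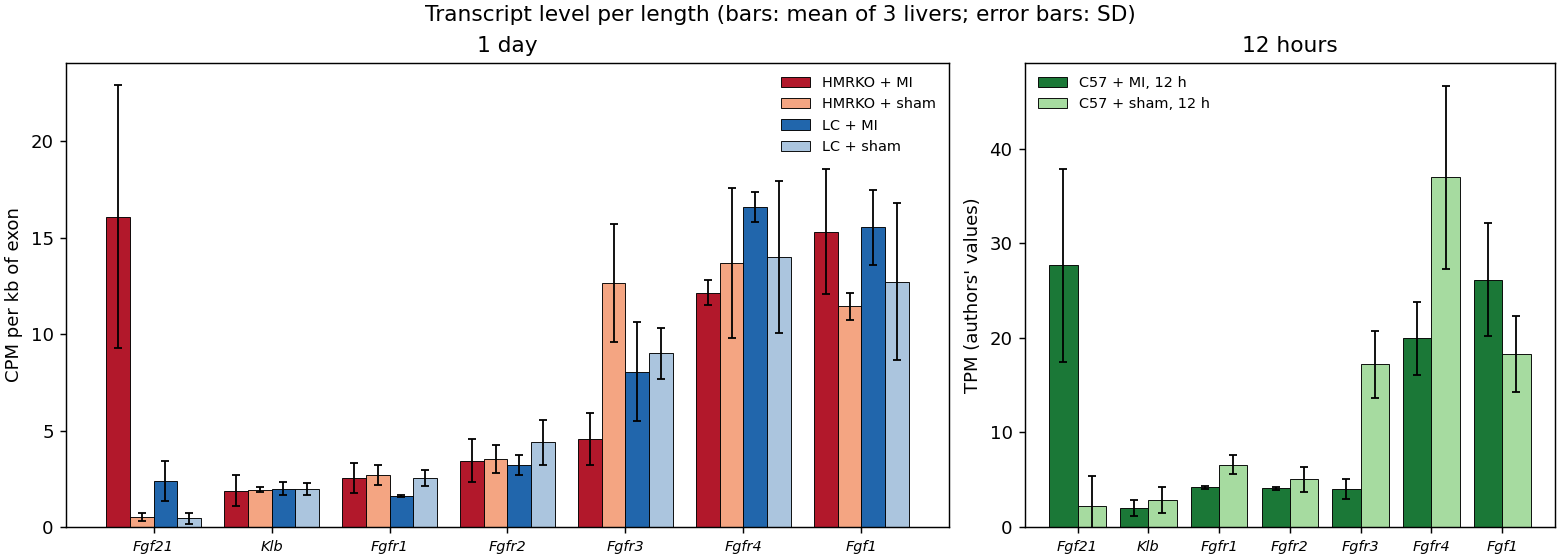
Bars show the mean transcript level per length of the 7 genes, in CPM per kilobase of exon at 1 day (left, 4 groups) and in the authors' TPM at 12 hours (right, 2 groups), with the SD over 3 livers as error bars. Fgf21 reached 16.1 CPM per kilobase in HMRKO + MI livers, against 2.40 in LC + MI livers, while Fgfr3 was at 4.57 in HMRKO + MI livers and 12.6 in HMRKO + sham livers.

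Counted together, 2 of the 7 genes were higher (Fgf21 and Fgfr1) and 1 lower (Fgfr3) in HMRKO + MI than in LC + MI livers, where 14.6% of all genes tested were called higher and 16.2% lower. Between HMRKO + MI and HMRKO + sham livers 1 was higher (Fgf21) and 1 lower (Fgfr3), with 22% of genes called higher and 21.7% lower. LC + MI against LC + sham livers had 1 higher (Fgf21) and 0 lower, with 2.68% and 2.33% of genes called. At an unadjusted edgeR p under 0.05, 1 was lower (Fgfr1), and DESeq2 called 0 lower. No member passed between HMRKO + sham and LC + sham livers, where 0.021% and 0.014% were called, and also 0 of the 7 at an unadjusted edgeR p under 0.05 and 0 with DESeq2. The interaction held 1 positive (Fgf21) and 1 negative (Fgfr3), with 6.74% and 8.5% of genes called. At 12 hours 2 were higher (Fgf21 and Fgf1) and 1 lower (Fgfr3), with 34.3% and 32% of genes called. In the comparisons of HMRKO + MI livers with LC + MI and with HMRKO + sham livers and at 12 hours, 1 or 2 members of 7 in a direction are a share near that of all genes.

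**Figure D2:**
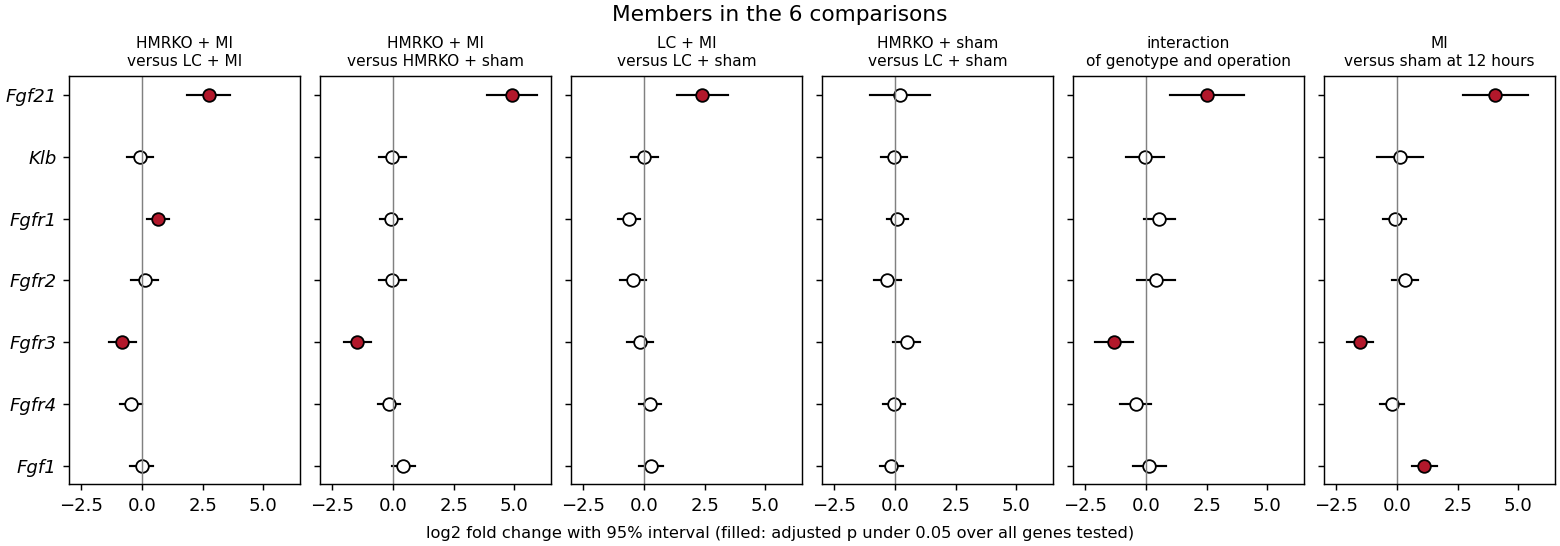
Points give the log2 fold change of the 7 genes in each of the 6 comparisons with the 95% interval, filled where the edgeR adjusted p over all genes tested was under 0.05. Fgf21 is filled in 5 of 6 panels (2.74, 4.92, 2.40, 2.51 and 4.05, and open at 0.23 for HMRKO + sham versus LC + sham), and Fgfr3 in 4 of 6 (-0.81, -1.47, -1.30 and -1.53).

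Fgf21 transcripts after MI were several-fold more abundant in livers without hepatocyte MR than in LC livers. Fgf21 reached 22.5, 13.6 and 9.84 CPM in HMRKO + MI livers (402, 372 and 194 reads), against 1.80, 3.42 and 1.63 CPM in LC + MI livers (36, 85 and 47 reads). The groups did not overlap, and the lowest HMRKO + MI liver stood well above the highest LC + MI liver. On the log2 scale the difference was 2.74 ± 0.40 (SE, a 6.68-fold difference), with an edgeR adjusted p of 0.00110 over all genes tested, and 45 of 14266 genes had a log2 fold change at least as high, Fgf21 included. Leaving out each liver in turn kept the call, with log2 fold changes of 2.36 to 3.16.

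In HMRKO mice, Fgf21 rose with MI, and few genes rose more. HMRKO + MI livers held 402, 372 and 194 reads of Fgf21 and HMRKO + sham livers 16, 6 and 12, which is 0.670, 0.289 and 0.527 CPM in the sham livers. This was a log2 fold change of 4.92 ± 0.48 (SE, 30.2-fold, edgeR adjusted p = 2.25e-05), and 37 of 14266 genes had a log2 fold change at least as high, Fgf21 included. Leaving out any 1 liver gave 4.54 to 5.20 and kept the call.

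In LC mice, in which hepatocyte MR was intact, Fgf21 also rose with MI, and its level after MI was lower than in HMRKO livers. LC + MI livers held 1.80, 3.42 and 1.63 CPM and LC + sham livers 0.754, 0.259 and 0.262 CPM (21, 7 and 7 reads), and the lowest LC + MI liver was above the highest LC + sham liver. The log2 fold change was 2.40 ± 0.48 (SE, 5.29-fold, edgeR adjusted p = 0.0185). This call rested on few reads: without LC + MI replicate 2 it was 1.99 (adjusted p = 0.0726), without LC + sham replicate 2 it was 2.15 (adjusted p = 0.0697), and without LC + sham replicate 3 it was 2.15 (adjusted p = 0.0626). This comparison and that of HMRKO + MI with LC + MI share the 3 LC + MI livers.

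Without an infarct, the loss of hepatocyte MR left no detectable difference in Fgf21. HMRKO + sham livers held 0.670, 0.289 and 0.527 CPM and LC + sham livers 0.754, 0.259 and 0.262 CPM, and the groups overlapped. The log2 fold change was 0.23 (95% interval -1.01 to 1.46, edgeR adjusted p = 0.986), an interval that leaves room for a difference of some size in either direction, at 34 reads over the 3 HMRKO + sham livers and 35 over the 3 LC + sham livers. Its sign turned without LC + sham replicate 2 or 3 or HMRKO + sham replicate 1, to -0.03, -0.02 and -0.05. Pooled over 3 livers, raw CPM of Fgf21, unscaled by TMM, were 14.0 (exact Poisson 95% interval 13.1 to 14.9) in HMRKO + MI, 2.24 (1.91 to 2.60) in LC + MI, 0.521 (0.361 to 0.728) in HMRKO + sham livers and 0.453 (0.316 to 0.630) in LC + sham livers, with intervals that cover counting error only.

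The response of Fgf21 to MI was itself larger in HMRKO than in LC mice. The difference between the 2 responses, tested as the interaction of genotype and operation, was 2.51 ± 0.70 on the log2 scale (SE, 5.70-fold, edgeR adjusted p = 0.0323). Removing any 1 of 6 livers ended that call. The adjusted p was 0.122 without LC + sham replicate 1, 0.0650 and 0.0544 on removing LC + MI replicates 1 and 3. It was 0.0759 without HMRKO + sham replicate 2, 0.0597 without HMRKO + sham replicate 3 and 0.0615 without HMRKO + MI replicate 1. The value stayed between 1.81 and 2.93.

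At 12 hours after MI, in C57 mice with intact MR, Fgf21 was already higher. MI livers held 435, 206 and 355 estimated counts of Fgf21 (30.5, 14.2 and 24.2 CPM), against 0, 1 and 9 in sham livers (0, 0.395 and 3.13 CPM). The lowest MI liver was above the highest sham liver, and sham replicate 1, with 0 of 1361506 counts, allows up to 1.76 CPM. The log2 fold change was 4.05 ± 0.61 (SE, 16.5-fold, edgeR adjusted p = 0.000199). Sham replicate 3 held 9 of the 10 sham reads, and without it the fitted value was 6.57 (adjusted p = 0.000182), which rests on a group with 1 read. The MI libraries were also thinned to the mean sham depth of 1893956 counts, an alternative chosen after seeing the data. Fgf21 then had 42, 22 and 30 counts in MI livers, against 0, 1 and 9 in sham livers, for a log2 fold change of 3.68 (edgeR adjusted p = 9.96e-05). Thinning evens the depth only and leaves differences in composition between the libraries as they were.

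**Figure D3:**
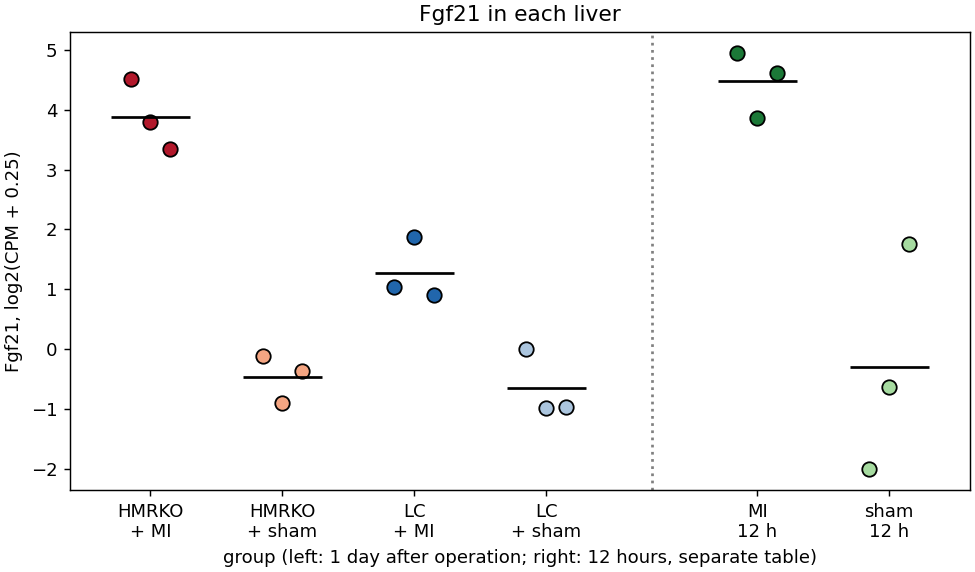
Each point is Fgf21 in 1 liver as log2(CPM + 0.25), in the 4 groups at 1 day (left) and the 2 groups at 12 hours (right of the dotted line, from a separate table), with the mean of the plotted values as a bar. The 3 HMRKO + MI livers (9.84 to 22.5 CPM) lie above the 3 LC + MI livers (1.63 to 3.42 CPM), and both sham groups at 1 day lie at 0.754 CPM or below.

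Genes of the circadian clock separated MI from sham livers. The clock output gene Dbp was at 7.94 to 9.90 CPM in HMRKO + MI livers, 6.19 to 14.5 CPM in LC + MI livers, 289.4 to 308.2 CPM in HMRKO + sham livers and 180.0 to 214.8 CPM in LC + sham livers. At 12 hours Dbp was at 2.76 to 14.7 CPM in MI and 239.2 to 362.0 CPM in sham livers. Arntl, the clock activator BMAL1, was at 4.52 to 5.82 CPM in HMRKO + MI livers, 6.51 to 10.2 CPM in LC + MI livers, 0.335 to 0.614 CPM in HMRKO + sham livers and 0.407 to 1.36 CPM in LC + sham livers. All 3 HMRKO + MI livers lay below all 3 LC + MI livers for Arntl. Between HMRKO + MI and LC + MI livers the log2 fold changes of Dbp (-0.12, edgeR adjusted p = 0.741), Arntl (-0.64, adjusted p = 0.131) and the clock repressor Nr1d1 (0.68, adjusted p = 0.167) did not pass. The hour of sampling and the feeding state of the mice are stated by no source used here. The part of either in the difference of Fgf21 between MI and sham livers was not tested.

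Exocrine pancreas and adipose tissue also express Fgf21, so their markers were measured beside it. Summed exocrine pancreas markers (16 genes) were 4.21 to 6.32 CPM in HMRKO + MI livers, 6.09 to 8.01 CPM in LC + MI livers, 13.4 to 15.04 CPM in HMRKO + sham livers and 7.68 to 23.7 CPM in LC + sham livers. Each liver had 8 to 13 of the 16 at 0 reads, among them Pnlip and Clps in every liver. The sum was mostly Cela1. At 12 hours it was 6.40 to 10.3 CPM in MI livers, with 7 to 10 of the 16 at 0, and 26.9 to 249.8 CPM in sham livers, with 0 to 2 at 0. The ranges overlapped between HMRKO + MI and LC + MI livers and between LC + MI and LC + sham livers, and the part of pancreas in the results was not tested. The defining adipocyte genes Adipoq, Lep and Plin1 had 0 or 1 read in every 1 day liver. The summed list of 6, most of it Fabp4 and Cfd, was 34.6 to 76.9 CPM in HMRKO + MI livers, 34.1 to 42.7 CPM in LC + MI livers, 43.1 to 199.4 CPM in HMRKO + sham livers and 8.04 to 13.9 CPM in LC + sham livers. In HMRKO + sham livers the sum was mostly Cfd (34.2 to 191.2 CPM). Fabp4 alone was at 24.1 to 73.5 CPM in HMRKO + MI livers, 19.5 to 40.7 CPM in LC + MI livers, 7.505 to 8.71 CPM in HMRKO + sham livers and 5.53 to 8.97 CPM in LC + sham livers, and so stood higher in both MI groups, as Fgf21 did. It was called higher in HMRKO + MI over HMRKO + sham (2.57, edgeR adjusted p = 0.000223) and in LC + MI over LC + sham livers (2.12, edgeR adjusted p = 0.00838). At 12 hours the adipocyte sum, over the 3 listed genes found, was 27.6 to 87.0 CPM in MI and 5.93 to 20.8 CPM in sham livers. The part of Fabp4-expressing cells in the results was not tested. The defining neutrophil gene Ly6g was at 0 or 1 read in each 1 day liver. The sum of 7 neutrophil markers moved with the HMRKO + MI group, at 30.2 to 33.3 CPM, against 10.7 to 20.3 CPM in LC + MI livers, 8.88 to 14.0 CPM in HMRKO + sham livers and 4.71 to 13.0 CPM in LC + sham livers. Of 6 neutrophil genes tested, 4 were higher in HMRKO + MI than in LC + MI livers, where 14.6% of all genes were higher. At 12 hours 5 of 7 were higher in MI than in sham livers, where 34.3% of all genes were higher and 32% lower. Among these 5 was Ly6g, with 27 to 61 counts in MI and 0 to 1 in sham livers. The other 2, Cxcr2 and Csf3r, were lower and carried the sum, which was 44.1 to 83.5 CPM in MI and 136.2 to 171.2 CPM in sham livers. The part of these cells in the results was not tested.

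Among the receptors, Fgfr3 moved opposite to the ligand. Fgfr3, a receptor for FGF1 and other FGFs, was lowest in HMRKO + MI livers at 25.9, 20.4 and 14.1 CPM, against 44.0, 70.4 and 52.4 CPM in HMRKO + sham livers. The 3 infarcted livers all lay below the 3 sham livers, with a log2 fold change of -1.47 ± 0.26 (SE, edgeR adjusted p = 0.000903), and no single liver decided the call (-1.68 to -1.27). In LC livers the gene had 48.5, 28.6 and 29.1 CPM after MI and 45.9, 34.4 and 38.6 CPM after sham. These groups overlapped, and the log2 fold change of -0.17 did not pass (95% interval -0.72 to 0.39, edgeR adjusted p = 0.761). Summed stellate markers were 108.9 to 174.4 CPM in HMRKO + MI, 100.2 to 134.0 CPM in LC + MI and 58.1 to 160.7 CPM in HMRKO + sham livers. Summed bile duct markers were 49.1 to 93.2, 69.6 to 94.6 and 75.9 to 143.6 CPM in the same groups. The part of these cells in the levels of Fgfr3 was not tested.

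Compared after MI, Fgfr3 was lower in HMRKO than in LC livers, with all 3 below all 3. The log2 fold change was -0.81 ± 0.26 (SE, edgeR adjusted p = 0.0318). The call was lost on leaving out LC + MI replicate 1, which had the high mitochondrial share (-0.52, adjusted p = 0.151), without HMRKO + MI replicate 2 (-0.82, adjusted p = 0.0750), and without HMRKO + MI replicate 3 (-0.61, adjusted p = 0.115). It was also lost in a fit of these 2 groups alone (-0.81, adjusted p = 0.0537). The interaction was -1.30 ± 0.36 (SE, edgeR adjusted p = 0.0325). It lost its call without LC + sham replicate 2 or 3, LC + MI replicate 1, HMRKO + sham replicate 2 or 3, or HMRKO + MI replicate 2 or 3. The adjusted p was then 0.0529 to 0.0770, with values from -1.34 to -1.01. Between HMRKO + sham and LC + sham livers the difference of 0.49 did not pass (95% interval -0.06 to 1.04, edgeR adjusted p = 0.898).

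At 12 hours, Fgfr3 was lower after MI in C57 mice as well. MI livers held 16.4, 10.6 and 17.0 CPM and sham livers 35.4, 40.7 and 50.03 CPM, without overlap. Its log2 fold change was -1.53 ± 0.24 (SE, edgeR adjusted p = 0.000293). It passed under every alternative run, from -1.33 without sham replicate 3 to -2.10 on log2(TPM + 0.1), and was -1.59 after thinning. Markers of other liver cells were summed beside it. Stellate markers summed to 130.1 to 187.9 CPM in MI and 291.5 to 513.2 CPM in sham livers. Of 10 stellate genes, 7 were lower and 0 higher, where 34.3% of all genes were higher and 32% lower. Endothelial sums (125.5 to 155.0 CPM in MI, 103.1 to 173.6 CPM in sham livers) overlapped, as did bile duct sums (74.5 to 134.0 and 74.3 to 120.9 CPM). The bile duct genes did not move together. Of 6 tested, 3 were lower (Krt19, Krt7 and Epcam) and 2 higher (Sox9 and Spp1). The part of these cells in the fall of Fgfr3 was not tested.

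Fgfr1, which binds FGF21 when KLB is present, was modestly higher after MI in HMRKO than in LC livers. HMRKO + MI livers held 18.0, 11.5 and 10.6 CPM and LC + MI livers 8.16, 8.60 and 8.68 CPM. All 3 HMRKO livers were higher, with a log2 fold change of 0.65 ± 0.21 (SE, edgeR adjusted p = 0.0329). The call was lost without HMRKO + MI replicate 1 (0.38, adjusted p = 0.146), without LC + MI replicate 1, 2 or 3 (0.62, 0.66 and 0.67, adjusted p = 0.0891, 0.0637 and 0.0663). It was also lost in a fit of these 2 groups alone (0.65, adjusted p = 0.0505). LC + MI livers all lay below LC + sham livers, at 11.3, 12.5 and 15.5 CPM in the sham group, without passing the test (-0.63, edgeR adjusted p = 0.102). HMRKO + MI livers overlapped HMRKO + sham livers at 12.8, 17.1 and 12.3 CPM (-0.07, 95% interval -0.52 to 0.37).

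Klb, the co-receptor, passed no test in any comparison. It had 4.08, 6.17 and 9.69 CPM in HMRKO + MI livers, 5.76, 8.08 and 7.30 CPM in LC + MI livers, 7.20, 6.31 and 6.93 CPM in HMRKO + sham livers and 7.86, 7.33 and 5.83 CPM in LC + sham livers. The 4 groups overlapped throughout. Its log2 fold change of HMRKO + MI over LC + MI was -0.09 (95% interval -0.64 to 0.47), and that of LC + MI over LC + sham was 0.01 (-0.54 to 0.56). At 12 hours Klb had 63, 52 and 112 counts in MI livers and 7, 18 and 9 counts in sham livers, which gave 0.12 (95% interval -0.82 to 1.06).

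Fgfr4, the main hepatocyte receptor and the one that carries the FGF15 signal, had the highest mean level per length of the receptors in every group. Fgfr4 had 42.8, 39.0 and 39.2 CPM in HMRKO + MI livers, against 56.5, 52.3 and 56.9 CPM in LC + MI livers. All 3 HMRKO livers were lower, but the log2 fold change of -0.45 ± 0.21 (SE) did not pass over all genes (edgeR adjusted p = 0.114), and passed only in the fit of these 2 groups alone (adjusted p = 0.0276). HMRKO + sham livers, at 39.5, 60.3 and 36.6 CPM, and LC + sham livers, at 61.4, 36.3 and 42.1 CPM, overlapped each other and their MI groups.

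Fgfr2, found mainly in epithelia, passed no test either. It ranged from 11.0 to 21.8 CPM in HMRKO + MI livers, 14.4 to 19.3 CPM in LC + MI livers, 14.3 to 21.5 CPM in HMRKO + sham livers and 17.0 to 28.7 CPM in LC + sham livers. The largest of its 1 day fold changes between groups was that of LC + MI over LC + sham, -0.46 (95% interval -1.01 to 0.09, edgeR adjusted p = 0.326).

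Fgf1, the other ligand, differed at 12 hours and not at 1 day. It had 94.0, 67.5 and 101.6 CPM in the 12 hour MI livers and 31.8, 45.1 and 42.0 CPM in the sham livers, without overlap (log2 fold change 1.14 ± 0.22, SE, edgeR adjusted p = 0.00121). This call depended on the scaling. The authors' TPM were 28.15, 19.41 and 30.89 in MI and 13.63, 20.63 and 20.64 in sham livers, which overlap, and on log2(TPM + 1) the difference was 0.49 (limma adjusted p = 0.110). At 1 day Fgf1 had 98.9, 68.4 and 71.0 CPM in HMRKO + MI livers, 92.02, 74.1 and 75.5 CPM in LC + MI livers, 57.2, 63.5 and 57.1 CPM in HMRKO + sham livers and 41.6, 78.4 and 77.8 CPM in LC + sham livers. HMRKO + MI livers all exceeded HMRKO + sham livers, without passing (0.42, 95% interval -0.06 to 0.90, edgeR adjusted p = 0.143).

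**Figure D4:**
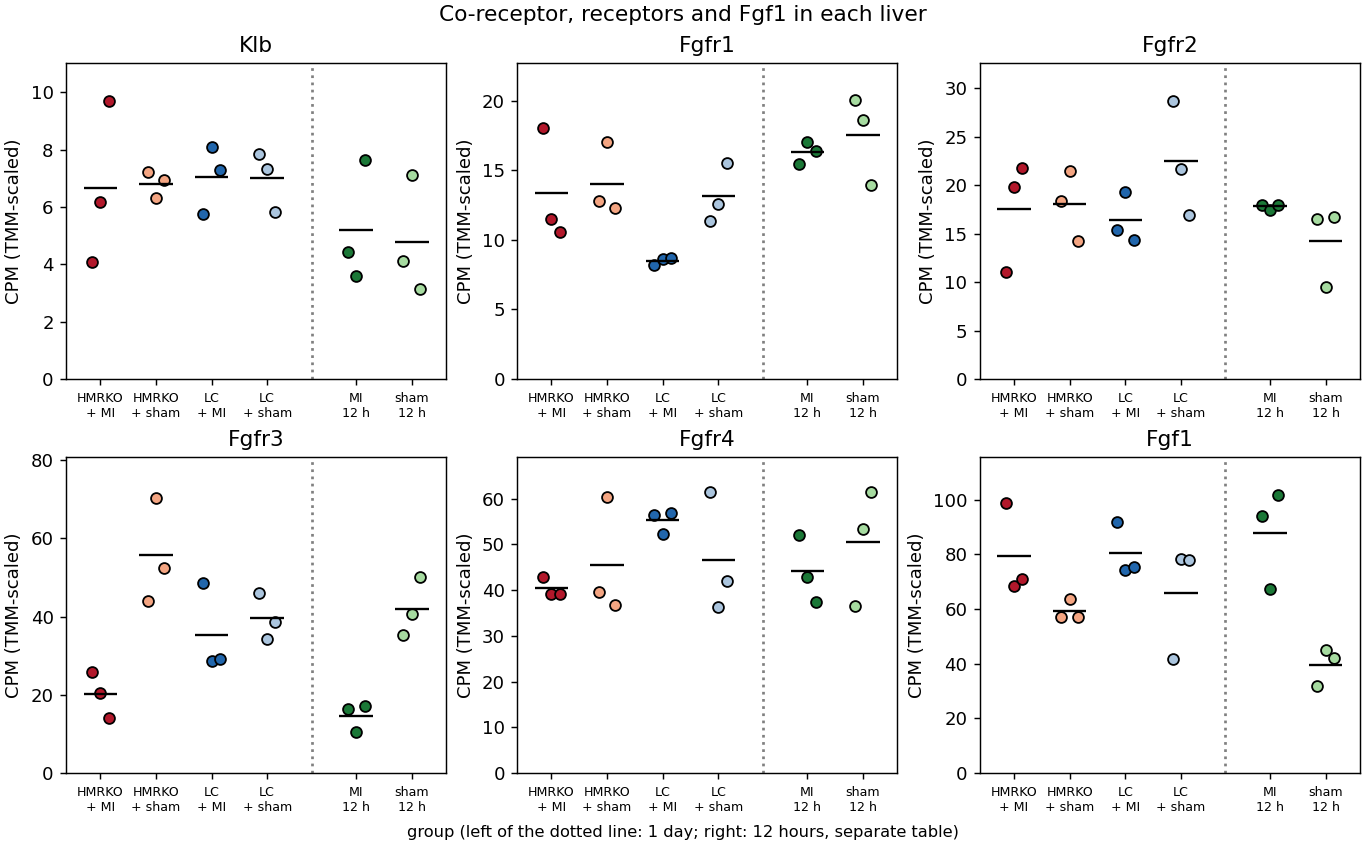
Each panel shows 1 gene in TMM-scaled CPM, from 0, with 1 point per liver and the group mean as a bar, for the 4 groups at 1 day and, right of the dotted line, the 2 groups at 12 hours. Fgfr3 is lower in HMRKO + MI (14.1 to 25.9 CPM) than in HMRKO + sham livers (44.0 to 70.4 CPM), while the 4 groups of Klb overlap at 1 day.

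The remaining receptors at 12 hours also turned on the scaling between deep and shallow libraries. TMM scaling left the median gene at 0.11 on the log2 scale, and on log2(TPM + 1) the median over the same genes was -0.37, with a median shift of -0.58 gene by gene. Calls divided into 4299 higher and 4013 lower with TMM and into 2268 higher and 5419 lower with TPM. Fgfr4 was at 52.1, 42.9 and 37.4 CPM in MI and 36.5, 53.4 and 61.5 CPM in sham livers (-0.21, edgeR adjusted p = 0.439). Fgfr1 was at 15.4, 17.0 and 16.4 CPM in MI and 20.03, 18.6 and 13.9 CPM in sham livers (-0.09, edgeR adjusted p = 0.733). On log2(TPM + 1) both passed as lower, Fgfr4 by -0.84 (limma adjusted p = 0.0148) and Fgfr1 by -0.55 (limma adjusted p = 0.0371). Set against the median gene, Fgf1 was higher and Fgfr4 lower on both scales. Fgfr2 was at 18.0, 17.5 and 18.0 CPM in MI and 16.5, 9.49 and 16.7 CPM in sham livers, with 0.33 (edgeR adjusted p = 0.257) on TMM and -0.23 (limma adjusted p = 0.402) on log2(TPM + 1).

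Other FGF ligands were close to absent at 1 day. Of 20 listed, 2 passed the filter at 1 day, and neither passed a test. At an unadjusted edgeR p under 0.05, 1 was lower in HMRKO + MI than in LC + MI livers, a call that DESeq2 also made, and 1 was higher in HMRKO + MI than in HMRKO + sham livers. At 12 hours 2 passed the filter, where 32% of all genes tested were lower. Both were lower in MI libraries (Fgf13, log2 fold change -5.88, edgeR adjusted p = 3.90e-05, and Fgf11, -3.60, adjusted p = 0.000121). These are intracellular FGF homologues known from excitable cells, which do not signal through FGF receptors.

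The intracellular relay that FGF receptors share with other receptor tyrosine kinases held more genes that were higher than lower in HMRKO + MI livers. Of 19 relay genes, 8 were higher and 1 lower in HMRKO + MI than in LC + MI livers, where 14.6% of all genes tested were higher and 16.2% lower. The median log2 fold change was 0.03, against -0.01 over all genes tested, and without a filter or without LC + MI replicate 1 the count of higher genes was 5. The calls included Braf, a kinase of the ERK cascade (1.01, edgeR adjusted p = 0.00132), the phosphatase SHP2 gene Ptpn11 (0.76, adjusted p = 0.00233) and, lower, the phospholipase Plcg1 (-0.65, adjusted p = 0.00590). Between HMRKO + MI and HMRKO + sham livers 8 were higher and 3 lower (median 0.09, against 0.01 over all genes, of which 22% were higher and 21.7% lower), and between LC + MI and LC + sham livers 0 of 19 passed, with 1 in each direction at an unadjusted edgeR p under 0.05 and 1 in each direction with DESeq2. At 12 hours 10 were higher and 3 lower, where 34.3% of all genes were higher and 32% lower. The median was 0.80, against 0.11 over all genes, but on both TPM scales 2 were higher and 5 lower, and without sham replicate 1 the count of lower genes was 1.

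Of 12 feedback and output genes of FGF receptor signalling tested, 1 passed between HMRKO + MI and LC + MI livers, where 14.6% of all genes were higher and 16.2% lower. It was the immediate early gene Egr1 (3.05 ± 0.58, SE, edgeR adjusted p = 0.00294). Egr1 also rose in HMRKO + MI over HMRKO + sham livers (3.17, edgeR adjusted p = 0.00107), as did the ERK feedback inhibitors Spry1 (1.09, adjusted p = 0.00688) and Dusp4 (2.77, adjusted p = 0.0105), whereas Spry4 fell (-1.34, adjusted p = 0.0118). In that comparison 3 of the 12 were higher and 1 lower, where 22% of all genes were higher and 21.7% lower. The median of the 12 was 0.56, against 0.01 over all genes. In LC livers 0 of the 12 passed, where 2.68% of all genes were higher and 2.33% lower. There was 1 in each direction at an unadjusted edgeR p under 0.05 and 1 in each direction with DESeq2. The closest ERK outputs Dusp6, Etv4 and Etv5 passed in no 1 day comparison with edgeR. Etv4 came near the threshold in LC livers, at 1.302, 1.37 and 0.969 CPM in LC + MI and 0.646, 0.259 and 0.224 CPM in LC + sham livers (1.66, edgeR adjusted p = 0.0509). At 12 hours 10 of the list were tested, where 34.3% of all genes were higher and 32% lower. Egr1 was higher in MI than in sham livers (0.87, edgeR adjusted p = 0.0152), while the feedback inhibitors Spred2 (-2.15, adjusted p = 4.28e-05), Spry2 (-1.80, adjusted p = 0.00972) and Il17rd (-1.85, adjusted p = 0.0231) were lower. Of these 4 calls, that of Egr1 was lost on both TPM scales and without sham or MI replicate 2 (0.69 and 0.67), that of Spry2 without sham replicate 1 (-1.42), and that of Il17rd without sham replicate 1 or 2 (-1.70 and -1.55). In each comparison given here, the feedback genes called were a share near or below that of all genes.

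Bile acid genes, which lie downstream of FGFR4 and KLB, were measured as 3 genes. Cyp7a1, the rate-limiting enzyme of bile acid synthesis, was lower in HMRKO + MI than in HMRKO + sham livers (-1.93 ± 0.56, SE, edgeR adjusted p = 0.0140), a call lost without HMRKO + sham replicate 3 (-0.96) or HMRKO + MI replicate 2 (-1.78). It was also lower in MI than in sham livers at 12 hours (-2.32, adjusted p = 0.000709). At 12 hours Nr0b2, the repressor SHP that is known to lower Cyp7a1, was lower too (-1.59, edgeR adjusted p = 0.0369), a call lost without any 1 of the sham livers or MI replicate 2 (-1.57 to -1.41). In the other 4 comparisons 0 of the 3 passed with edgeR or with DESeq2, and 1 was lower in LC + MI than in LC + sham livers at an unadjusted edgeR p under 0.05.

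Of 22 listed transcriptional regulators of Fgf21, all were tested. In HMRKO + MI against LC + MI livers 6 were higher and 2 lower, where 14.6% of all genes were higher and 16.2% lower, with a median of 0.23, against -0.01 over all genes. Without LC + MI replicate 2 or HMRKO + MI replicate 3 the count of higher regulators was 3. Xbp1, a factor of the unfolded protein response (1.32 ± 0.19, SE, edgeR adjusted p = 0.00108), Ppara, the fasting receptor that induces Fgf21 (1.14 ± 0.25, adjusted p = 0.00580), and Stat3 (0.68 ± 0.17, adjusted p = 0.0125) were higher. The deleted Nr3c2 was lower (-1.36 ± 0.29, adjusted p = 0.00505). Between HMRKO + MI and HMRKO + sham livers 5 were higher and 6 lower, a share near that of all genes (22% higher and 21.7% lower). They were led by the carbohydrate sensor Mlxipl (-1.70, edgeR adjusted p = 0.000552), Nr3c2 (-1.65, adjusted p = 0.000756), Stat3 (0.94, adjusted p = 0.00113) and Xbp1 (1.01, adjusted p = 0.00126).

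In LC + MI against LC + sham livers 4 regulators of 22 passed, where 2.68% of all genes were higher and 2.33% lower. Of these, 1 was higher (the bile acid receptor Nr1h4, 0.82, edgeR adjusted p = 0.0181) and 3 lower (Nr1d1 at -2.35 with adjusted p = 0.00603, Nr3c2 at -1.18 with adjusted p = 0.0238, and the glucocorticoid receptor Nr3c1 at -0.61 with adjusted p = 0.0277). The call of Nr1h4 was lost without LC + sham replicate 3 or LC + MI replicate 3. That of Nr3c2 was lost without LC + sham replicate 2 or LC + MI replicate 2 or 3 (-1.07 to -1.002), and the call of Nr3c1 without LC + sham replicate 1 or 2 or LC + MI replicate 2 or 3. At 12 hours 9 were higher and 3 lower, where 34.3% of all genes were higher and 32% lower, but 6 were lower with RLE size factors, and on both TPM scales 5 were higher and 8 lower. Among those called were Xbp1 (3.25, edgeR adjusted p = 6.82e-06), Nfil3 (3.34, adjusted p = 8.52e-06), Atf4 (2.14, adjusted p = 1.65e-05) and the corepressor Ncor1 (-3.26, adjusted p = 1.29e-05). Atf4 also rose in HMRKO + MI over HMRKO + sham livers (0.93, edgeR adjusted p = 0.00135). It did not pass in LC + MI over LC + sham livers (0.44, edgeR adjusted p = 0.171) and was called in no other 1 day comparison. The part of these regulators in the level of Fgf21 was not tested. In the interaction 6.74% of all genes were called positive and 8.5% negative. Of the 22 regulators 2 passed, both positive, Xbp1 (1.297, edgeR adjusted p = 0.0124) and Stat3 (0.88, adjusted p = 0.0327). The call of Stat3 was lost on leaving out any 1 of 9 of the 12 livers (0.74 to 0.90). Between HMRKO + sham and LC + sham livers 0.021% of all genes were higher and 0.014% lower. Pparg, which can induce Fgf21 in adipocytes, was the 1 regulator of 22 that passed there (1.26, edgeR adjusted p = 0.0415). The call was lost without LC + sham replicate 1 or 2 or any 1 of the HMRKO + sham livers.

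The genes whose levels over the 12 livers were most like those of Fgf21 were described by Pearson r of log2 CPM against the 14265 other genes tested. The 10 highest were Clcf1 (r = 0.99), Syt12 (0.98), 2810402E24Rik (0.98), Cd28 (0.98), Gm43672 (0.97), Jrk (0.97), Itga2 (0.97), 4833411C07Rik (0.97), Slc16a1 (0.97) and Neat1 (0.97). Clcf1, a cytokine of the IL-6 family, averaged 15.9 CPM in HMRKO + MI livers, 5.97 in LC + MI, 2.66 in HMRKO + sham livers and 2.26 in LC + sham livers, the order of groups seen for Fgf21. Over the 6 livers at 12 hours its r with Fgf21 was 0.86, while that of Syt12 was -0.95. The 5 lowest at 1 day were Bdh2 (-0.99), Naxd (-0.98), Ccs (-0.98), Slc35e2 (-0.97) and Kyat3 (-0.97).

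Among the members, Fgfr3 had the strongest relation to Fgf21 over the 12 livers at r = -0.77, but within groups, after the group means were removed, its r was 0.13. The other 5 lay between -0.31 (Fgfr2) and 0.39 (Fgf1), and Nr3c2 was at -0.90. The 10 highest genes above had r of 0.49 to 0.88 within groups, and the 5 lowest -0.87 to -0.77. Because the 12 livers fall into 4 groups, the values over all 12 include the differences between group means, and 323 genes had r over 0.9 and 463 under -0.9.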

How the data were processed

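RNA-seq libraries (TruSeq, Illumina) from 18 livers were analysed as 2 experiments, 12 livers at 1 day and 6 at 12 hours. Operation and time at 1 day followed the study design, since titles of MI livers name no operation. The authors deposited raw counts per gene at 1 day. At 12 hours the deposited table gives estimated counts, which were rounded here, and TPM, which the authors normalised by length and to 1 sum. The submitters' processing notes name build mm9 and the tools TopHat2, HISAT2 2.1.0, DESeq2 and Bowtie2 2.2.3. The sources used here do not say which tool made which values. The deposited FPKM values were not used, and 0 columns were left unmapped.

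edgeR 4.0.16 in R 4.3.3 fitted group means by quasi-likelihood over all 12 livers, and separately over the 6, on TMM-scaled counts kept by filterByExpr (minimum count 10, minimum total count 15). CPM are TMM-scaled. A gene passed at a Benjamini-Hochberg adjusted p under 0.05 over all genes tested. p-values weigh a difference of group means against the spread between livers within groups. That spread was estimated over all groups of a fit and moderated across genes. Alternatives were RLE size factors, DESeq2 1.42.0, no filter, the replicate number as a block, only the groups compared, leaving out each liver, limma 3.58.1 on log2(TPM + 1) and log2(TPM + 0.1), and thinned counts. With 3 livers a group, single-gene permutation tests cannot go below p = 0.1 and were not used. Named genes were the 7 members, the 4 smallest p among passing genes of each pathway list in a comparison, Nr3c2, and the 10 highest and 5 lowest correlations with Fgf21. One gene that this rule names is not reported here. Dusp6, Etv4 and Etv5 are outside that rule and were named after their values were seen. So were Atf4 in the 1 day comparisons, Nr1d1 between HMRKO + MI and LC + MI livers, Dbp, Arntl, Fut1 and Gm20594, and the markers named. The members and lists were chosen with earlier results of these data known.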

Additional observations from a re-analysis of the deposited data

Results flagged for a closer look

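For Fgf21, the response to MI differed between the genotypes by a test of the difference itself. The interaction was 2.51 on the log2 scale (edgeR adjusted p = 0.0323), from a log2 fold change of 4.92 in HMRKO and 2.40 in LC livers. Its call was kept in 6 of the 12 fits that left out 1 liver.

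For Fgfr3, the same test gave an interaction of -1.30 (edgeR adjusted p = 0.0325), from -1.47 in HMRKO and -0.17 in LC livers. That call was kept in 5 of the 12 fits that left out 1 liver. Between HMRKO + sham and LC + sham livers the Fgfr3 difference of 0.49 did not pass, while its mean was 55.6 ± 13.5 CPM in HMRKO + sham and 39.7 ± 5.84 CPM in LC + sham livers (SD, n = 3 each).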

How the results depend on the processing

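For Fgf21, leaving out each liver gave log2 fold changes of 1.99 to 3.11 in LC + MI over LC + sham, 2.36 to 3.16 in HMRKO + MI over LC + MI, 4.54 to 5.20 in HMRKO + MI over HMRKO + sham, -0.054 to 0.93 in HMRKO + sham over LC + sham, 1.81 to 2.93 in the interaction and 3.63 to 6.57 at 12 hours. The count of members called then ran from 0 to 1 higher in LC + MI over LC + sham, 1 to 2 higher and 0 to 1 lower in HMRKO + MI over LC + MI, and 0 to 1 higher and 0 to 1 lower in the interaction.

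With the replicate block, Fgf21 was 2.49 (edgeR adjusted p = 0.0124) in LC + MI over LC + sham and 4.09 at 12 hours, members higher in HMRKO + MI over LC + MI were 1, since Fgfr1 missed the threshold (0.64, adjusted p = 0.0518), and Klb in LC + MI over LC + sham was -0.011. Same-numbered livers of different groups deviated with r from -0.17 to 0.18 over 18 pairs at 1 day and from -0.09 to 0.02 over 3 pairs at 12 hours. No pairing by number was seen, but deviations from means of 3 livers cannot exclude it. In a fit of the groups compared, members higher in HMRKO + MI over LC + MI were also 1. At 12 hours, log2(TPM + 1) and log2(TPM + 0.1) gave 1 member higher and 3 lower, with Klb at -0.35 and -0.49 and Fgfr2 at -0.23 and -0.26, and without a filter Fgfr1 was 0.065.

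Leaving out 1 liver turned the sign of values that did not pass. In LC + MI over LC + sham Klb ran from -0.11 to 0.13. In HMRKO + MI over LC + MI Klb ran from -0.45 to 0.17, Fgfr2 from -0.077 to 0.35 and Fgf1 from -0.20 to 0.086. In HMRKO + MI over HMRKO + sham Klb ran from -0.40 to 0.22, Fgfr1 from -0.34 to 0.082, Fgfr2 from -0.22 to 0.21 and Fgfr4 from -0.31 to 0.079. In HMRKO + sham over LC + sham Klb ran from -0.15 to 0.052, Fgfr1 from -0.060 to 0.23 and Fgfr4 from -0.28 to 0.21. In the interaction Klb ran from -0.41 to 0.20 and Fgf1 from -0.051 to 0.38. At 12 hours Klb ran from -0.33 to 0.60, Fgfr1 from -0.19 to 0.042 and Fgfr4 from -0.36 to 0.0088. The cause was not tested.

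For the 52 results on named pathway genes, 584 of 632 alternative values kept their side of the threshold, 48 lost it and 0 reversed. Depth limits Fgf21 in sham livers, at 6 to 21 reads a liver at 1 day and 0 to 9 at 12 hours.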

Other observations

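Fut1, a fucosyltransferase gene that lies beside Fgf21 on chromosome 7, was likewise highest in HMRKO + MI livers at 1 day, at a far lower level. It was at 0.558 to 1.12 CPM in HMRKO + MI, 0.1002 to 0.281 CPM in LC + MI, 0.0482 to 0.293 CPM in HMRKO + sham and 0.0359 to 0.0374 CPM in LC + sham livers. The log2 fold change of HMRKO + MI over LC + MI was 1.82 and that of HMRKO + MI over HMRKO + sham was 2.35. Fut1 passed the filter on low counts only through the HMRKO + MI livers, where it was highest, so no p-value is given. No exon of Fgf21 overlaps an exon of another gene in GENCODE vM21, and a part of reads running on from a neighbour was not tested. Flrt1, a membrane protein known to bind FGF receptors, was lower in HMRKO + MI than in LC + MI livers (-1.995, edgeR adjusted p = 0.0177), a call lost without LC + MI replicate 1 or HMRKO + MI replicate 3 (-1.60 and -1.61), and lower in MI than in sham livers at 12 hours (-5.79, edgeR adjusted p = 4.34e-06).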
